A study of Mus musculus with 16 samples.

Results

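The genes described here encode the proteins of the cytosolic ribosome. They were taken from the table of RNA levels by symbol: Rpl or Rps followed by a number, or Rplp0, Rplp1 and Rplp2, with an RPKM (reads per kilobase of gene, scaled to the reads of the library) of 1 or more in at least 2 of 16 libraries. Of 21671 genes in the table, 83 matched the symbols and 80 passed the level, 48 of the large subunit and 32 of the small subunit. The lowest that passed was Rps4l, at 1.18 and 1.20 RPKM in its highest libraries, and Rpl3l, Rpl10l and Rpl39l stayed below, with Rpl3l reaching 0.77 RPKM.

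RNA came from mouse embryonic fibroblasts that were starved of serum and all expressed MycER, a Myc protein that works as a transcription factor once 4-hydroxytamoxifen (OHT) binds it. The 8 groups had 2 libraries each: YAP2S OHT Y27, YAP2S OHT, YAP2S Y27, YAP2S, MycER OHT Y27, MycER OHT, MycER Y27 and MycER. OHT was used at 400 nM and the ROCK kinase inhibitor Y27632 (Y27) at 50 µM, and groups whose names lack OHT or Y27 did not receive it. YAP2S stands for a second population that also carried a YAP mutant in which serines that restrain YAP are replaced by alanine. The labels give neither the length of treatment nor whether cells were clonal, and they do not state that replicates grew as cultures of their own, so p-values measure only the spread between these libraries. Since these are bulk samples, less RNA per cell and fewer cells of a type cannot be told apart.

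Ribosomal proteins assemble with ribosomal RNA in the nucleolus, and cells make them in matched amounts. In vertebrates their mRNAs begin with a terminal oligopyrimidine (TOP) tract, a run of C and T in the DNA, through which mTOR signalling and Larp1 set how well they are translated. Their mRNAs are short and among the most abundant in a growing cell. Myc is known as a regulator of ribosome production, through RNA polymerase I and factors that process and assemble ribosomal RNA as well as through ribosomal protein genes.

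Of the 80 genes, 59 had a promoter in the RefSeq table of build GRCm38.p6, which is not the build of the files (mm9), so these coordinates serve only to locate the sequences. A run of at least 7 bases of C or T, on the gene's strand and within 50 bases of the RefSeq start, was found in 53 of the 59 (89.8%), against 49.8% of the promoters of genes tested and 54.2% of all promoters in the table. The longest run had a median of 11 bases in the ribosomal protein genes and of 6 bases in the genes tested. The Myc and Max binding motif CACGTG, a palindrome and so the same on both strands, was searched for from 250 bases before to 50 after the start. It stood in 6 of the 59 (10.2%), against 11.7% of the promoters of genes tested and 8.09% of all. A match describes the letters and does not show a site in use. The sequences below are those of the genes whose levels are followed most closely in what comes next, each with its longest run in capitals, 5′ to 3′.
Rps24 (chr14:24490711-24490740, plus strand): agcggTCCTCTTTTCCTCCTCTCCagctcc
Rpl28 (chr7:4792953-4792982, plus strand): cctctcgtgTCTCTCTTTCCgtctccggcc
Rpl18 (chr7:45718062-45718091, plus strand): tcgcaggccgCTCTTTCCCCgcccactccg
Rpl5 (chr5:107900498-107900527, plus strand): cctacagccaCTCTTTCTCacgtcgcttgc
Rpl22 (chr4:152325679-152325708, plus strand): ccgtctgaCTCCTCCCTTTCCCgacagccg
Rps16 (chr7:28350632-28350661, plus strand): aattcacacgTCCCCTCTCaggcttcgacg
Rpl7l1 (chr17:46782670-46782699, minus strand): gtcgaggcgggCCTCTCTaccccgcccggt
The run was 19 bases long in Rps24 and 7 bases long in Rpl7l1, the paralog of Rpl7. Counted from the RefSeq start, it began at -37 in Rps24, -39 in Rpl22, -47 in Rps16, -32 in Rpl7l1 and -20 in Rpl5. In these genes it also ended before that start, outside the annotated mRNA, so it is not shown to be a TOP tract. It began at -3 in Rpl28 and at 2 in Rpl18.

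Depth and labels bear on every value that follows. The reads behind the RPKM values could be recovered from the steps of low values, and the libraries held 1.76 to 15.7 M (mega) reads, an 8.92-fold range. The shallowest were MycER replicate 1 and both replicates of MycER OHT Y27, all under 4 M, whereas the YAP2S and YAP2S Y27 libraries held 13.0 to 15.0 M. Bex1 set the untreated populations apart, at 15.97 and 16.1 RPKM in YAP2S and 0 and 0.49 RPKM in MycER, but went against the labels with OHT, at 1.01 and 0.47 RPKM in YAP2S OHT and 19.0 and 19.8 RPKM in MycER OHT, and likewise at 0.12 and 0.57 RPKM in YAP2S OHT Y27 and 7.64 and 7.49 RPKM in MycER OHT Y27. Bex1 was chosen with its values known. Groups are therefore called by their labels throughout. The average over OHT, 8 libraries against 8, does not depend on which OHT library belongs to which population. Yap1 (17.0 to 30.6 RPKM), Myc (28.4 to 55.0 RPKM) and Esr1, whose ligand-binding part MycER carries (0.73 to 1.98 RPKM), did not separate the populations. Of 11 fibroblast markers, Col1a1, Col1a2, Col3a1, Fn1, Pdgfrb, Vim and S100a4 were above 25 RPKM in every library. Thy1, Pdgfra and Lum were under 0.4 RPKM, and Dcn reached 1.22 RPKM. Of 4 endothelial markers, Kdr reached 0.88 RPKM, Tek 0.43 RPKM, Pecam1 0.42 RPKM and Cdh5 0.05 RPKM. Of 4 muscle markers, Des reached 0.26 RPKM, Myog 0.09 RPKM, Myod1 0.04 RPKM and Myh3 0.02 RPKM. Of 7 macrophage markers in the table, Cd14 (6.37 to 44.9 RPKM) and Cd68 (3.81 to 10.7 RPKM) were above 1 RPKM in all 16 libraries, Lyz2 reached 2.77 RPKM and Csf1r 1.14 RPKM, and Ptprc, Itgam and Emr1 stayed under 0.4 RPKM. Their sum was 16.3 to 53.3 RPKM in libraries with OHT and 14.2 to 52.8 RPKM in those without, and their part in the results was not tested. Of 5 neural markers, Tubb3 was at 26.5 RPKM or more and Map2 at 2.06 RPKM or more in every library, while Rbfox3, Gfap and Sox10 stayed under 0.4 RPKM. Of 4 adipocyte markers, Pparg was at 1.97 to 7.13 RPKM and Fabp4 reached 1.77 RPKM, while Adipoq reached 0.16 RPKM and Plin1 0.04 RPKM. Of 5 epithelial markers, Cdh1 reached 1.83 RPKM, Krt8 0.52 RPKM, Krt18 0.15 RPKM, Epcam 0.10 RPKM and Krt5 0 RPKM.

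As deposited, the ribosomal protein genes were among the highest genes of every library, with 20 to 36 of the 80 among the 100 genes of highest RPKM. Mean RPKM over the 16 libraries was above 100 for 39 of them and below 20 for 5. Rplp1, an acidic protein of the stalk that recruits translation factors, was the highest (192 RPKM), followed by Rpl8 (180 RPKM) and Rpl4 (179.6 RPKM), proteins of the large subunit core. The lowest were Rps4l (0.44 RPKM), Rpl26 (1.27 RPKM) and Rpl34 (12.4 RPKM). Rpl26 rested on 1 to 11 reads a library and Rps4l on 0 to 17, so their changes carry little weight. Many ribosomal protein genes have processed pseudogenes, near-identical copies elsewhere in the genome, and how reads shared with them were assigned is not given in the sources used here. The level of such a gene is uncertain to that extent. The gene lengths implied by the values ran from 332 bases for Rps28 to 5145 bases for Rps15a, with a median of 778 bases, against 3140 bases over all genes tested.

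The deposited level of these genes followed depth. Their median RPKM was 201 in the shallowest library and 68.0 in a library of 15.0 M reads. Across the 16 libraries the log2 median had a slope of -0.50 for each 2-fold gain in depth (Pearson r = -0.996, Spearman rho = -0.98, permutation p = 1e-05 for both, the smallest that 100000 permutations can give). Quantile normalisation, which gives every library the same set of values and places a gene by its rank, left a slope of -0.11 per 2-fold gain (r = -0.95, rho = -0.84, permutation p = 1e-05 and 0.00012; adjusted over 16 such relations 3.2e-05 and 0.000384). The normalised medians ran from 83.4 RPKM in YAP2S OHT replicate 1 to 105.9 RPKM in MycER OHT Y27 replicate 2. Without the 2 libraries farthest in depth, MycER replicate 1 and MycER OHT Y27 replicate 2, r after normalisation was -0.90 (permutation p = 7e-05). Within the 8 libraries with OHT it was -0.94 (exact permutation p = 0.00665) and within the 8 without OHT -0.98 (exact permutation p = 0.000397). These permutations treat libraries as exchangeable, although the 2 of a group share treatment, population and often similar depth. Their p-values are therefore likely too small. Within groups, the shallower replicate had the higher normalised level in 8 of 8, with medians over the 80 genes of the difference between replicates from 0.02 to 0.16 (log2), the largest in MycER (1.76 against 7.06 M reads).

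**Figure D1:**
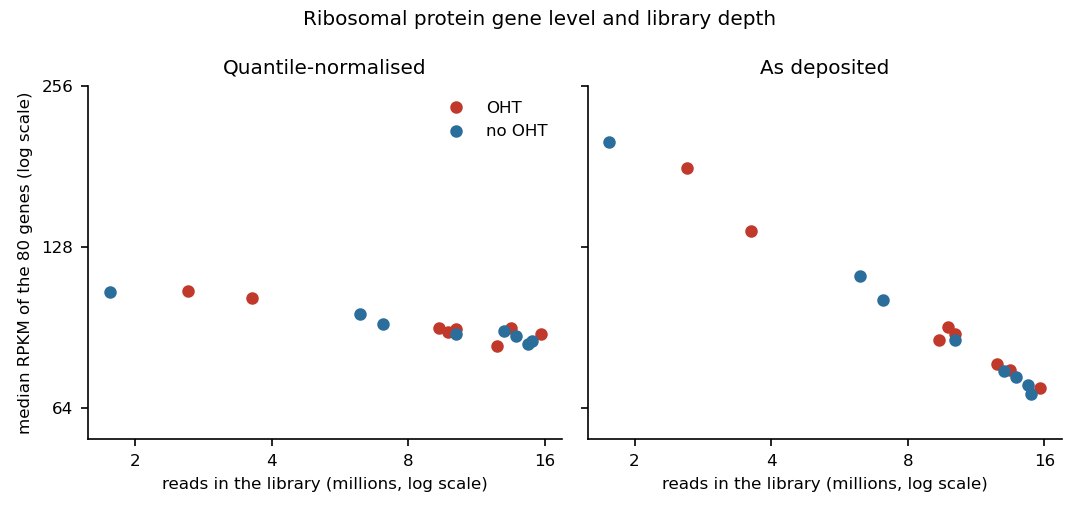
Median RPKM of the 80 ribosomal protein genes in each of 16 libraries (points; both axes on a log scale) against the reads in the library (M), after quantile normalisation at the left and as deposited at the right. Red points are libraries with OHT and blue points libraries without. The deposited medians run from 201 RPKM in the shallowest library to 68.0 RPKM in a deep one, and normalised medians from 83.4 to 105.9 RPKM.

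The recovered reads of single genes were compared between the deepest library (MycER OHT replicate 1) and the shallowest (MycER replicate 1). Rpl41, one of the shortest proteins of the ribosome, had 809 reads in the deepest library and 396 reads in the shallowest, and Rplp1 had 764 reads and 419 reads. From the shallowest library to the deepest, the reads of 77 of the 79 genes that could be compared grew by less than the libraries did, with a median of 2.60-fold. The lowest gain was 1.82-fold for Rplp1. Only Rpl34, at 132 reads in the deepest library and 11 in the shallowest, and Rps16, at 713 and 27, grew by more than the depth. In reads per base of gene, the median of the 80 was 1.096 in the deepest library and 0.354 in the shallowest, and 44 genes stood above 1 read per base in the deepest against 0 in the shallowest. The highest value of any gene in any library was 1.86 reads per base. The median over all genes tested was 0.270 and 0.0197 reads per base in the same libraries, both far below those of the ribosomal protein genes. The sources used here do not say whether identical reads were counted more than a single time. As a share of reads, the 80 genes took 0.504% in the deepest library and 1.59% in the shallowest.

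**Figure D2:**
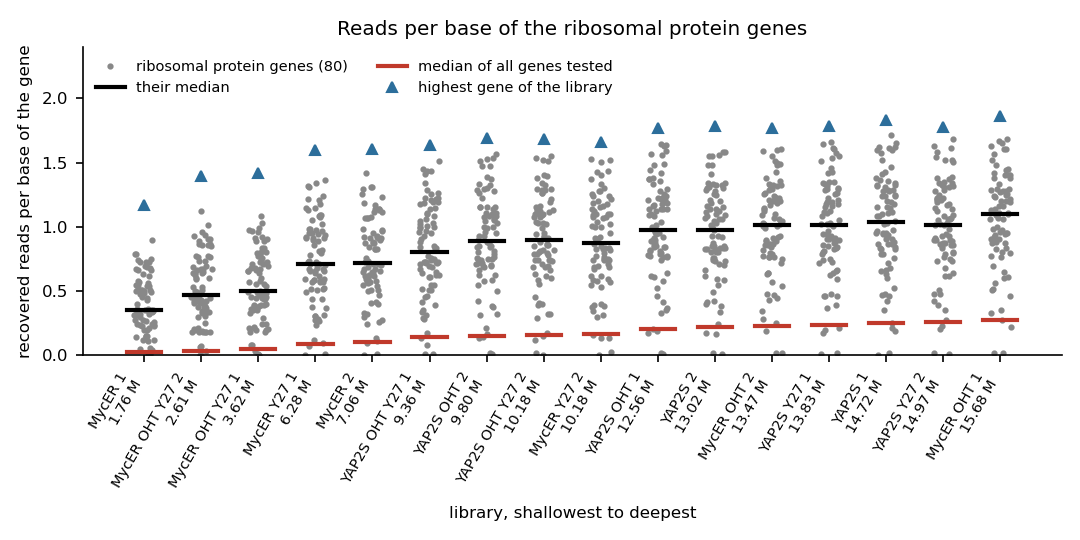
Recovered reads per base of gene in each library, ordered from the shallowest (1.76 M reads) to the deepest (15.7 M). Grey points are the 80 ribosomal protein genes, black lines their median, red lines the median of all genes tested and blue triangles the highest gene of the library. The black lines climb from 0.354 to 1.096 reads per base, and the triangles stay between 1.17 and 1.86.

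Members differed in their relation to depth. After quantile normalisation 69 of the 80 fell with depth and 30 had r under -0.9 with log2 depth, among them Rpl18 (-0.98), Rpl5 (-0.97) and Rpl31 (-0.99). In 11 members r was above 0, highest in Rpl36 (0.87), Rpl28 (0.80) and Rps20 (0.77). These r over 16 libraries are descriptions, as all points share the depth of their library. Shares of all genes with such r are not given, so the pattern is not shown to be particular to these members. Rps20, a small subunit protein, had a normalised level of 149 and 150.3 RPKM in MycER OHT Y27, against 168 RPKM in both MycER OHT libraries, while its deposited level was 253 and 341 RPKM against 108 and 118 RPKM. The highest genes keep nearly the same rank in every library, and their normalised level therefore hardly moves: Rplp1 varied 1.13-fold between its highest and lowest library after normalisation and 4.89-fold before. Over the 80 genes these ranges had medians of 1.32-fold and 3.51-fold.

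Whether activation of MycER changed ribosomal protein mRNAs was asked by averaging over OHT, which compares 8 libraries of 2.61 to 15.7 M reads with 8 of 1.76 to 15.0 M. Changes are on the log2(RPKM + 1) scale after quantile normalisation, tested in limma across all 13028 genes and called at an adjusted p under 0.05 (Benjamini-Hochberg). Of the 80 ribosomal protein genes, 1 was higher with OHT and 0 were lower, whereas 17.7% of all genes tested were higher and 20.6% lower. Their median change was 0.03, against -0.02 over all genes. An unadjusted p under 0.05 was reached by 6 of the 80, all higher, compared with 47.5% of all genes, and 70 of the 80 lay within 0.1 of no change, compared with 35% of all genes. The median standard error was 0.04. Most of the 80 stand at high ranks, where quantile normalisation lets a level hardly move, which limits both the changes and their standard errors. Whether a response to OHT was hidden in this way was not tested. Of the 80 changes, 62 were above 0, but the median change of 0.03 was below the median standard error of 0.04. The share of all genes above 0 is not given, and the genes share their libraries. A rise of the 80 as a set is therefore not shown by that count. The values as deposited also called 1 gene higher, against 13% of all genes tested. None of the 80 had 8 libraries entirely above or below the other 8, against 4.13% of all genes. With log2 depth as a covariate 7 were called higher and 0 lower, against 19.5% of all genes higher: Rps24, Rps15a, Rps19, Rpl37, Rps21, Rpl21 and Rpl10a. The number called also moved when single libraries were left out, among them MycER replicate 1, the shallowest, and YAP2S OHT Y27 replicate 2.

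The gene called in the average was Rps24, a small subunit protein needed to process the precursor of 18S ribosomal RNA. Its normalised level was 57.0 and 60.5 RPKM in YAP2S OHT Y27, against 48.9 and 48.0 RPKM in YAP2S Y27. It stood at 62.3 and 60.7 RPKM in YAP2S OHT, against 48.2 and 46.7 RPKM in YAP2S, and at 61.5 and 63.6 RPKM in MycER OHT Y27, against 54.5 and 50.9 RPKM in MycER Y27. In MycER OHT it was 59.5 and 61.3 RPKM, against 63.5 and 53.6 RPKM in MycER. Every library with OHT thus exceeded every library without it but the shallowest, MycER replicate 1. The averaged change was 0.23 ± 0.04 (SE; limma adjusted p = 0.000625), and over the leave-one-out fits it stayed between 0.20 and 0.25. It was 0.22 as deposited (adjusted p = 0.0375) and 0.23 with depth as a covariate (adjusted p = 9.39e-05). Changes by pair depend on the population labels of the OHT libraries, which Bex1 goes against, so OHT and population cannot be told apart in them. By these labels, Rps24 was higher with OHT by 0.37 ± 0.08 in YAP2S (limma adjusted p = 0.00628). It was higher by 0.27 in YAP2S with Y27 (adjusted p = 0.0249) and by 0.24 in MycER with Y27 (adjusted p = 0.0197). In MycER without Y27 the change was 0.05 (adjusted p = 0.648). The gene length implied by its RPKM was 4393 bases.

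The other extremes of the average did not pass the threshold. Rps15a, a small subunit protein, changed by 0.24 ± 0.11 (adjusted p = 0.111) and Rps19, mutated in Diamond-Blackfan anaemia, by 0.21 ± 0.09 (adjusted p = 0.0941). Without MycER replicate 2 these changes were 0.13 for Rps15a and 0.13 for Rps19, and without MycER replicate 1, the shallowest library, they were 0.35 (adjusted p = 0.00166) and 0.28 (adjusted p = 0.00875). Rpl26 stood at 0.20, Rpl37 at 0.15 and Rpl11 at 0.12. At the low end were Rps16 (-0.19 ± 0.28), Rpl30 (-0.06), Rpl23 (-0.06), Rpl34 (-0.05), Rps29 (-0.04) and Rpl24 (-0.03), again without passing. By subunit the median was 0.05 over the small subunit genes and 0.02 over the large subunit genes.

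**Figure D3:**
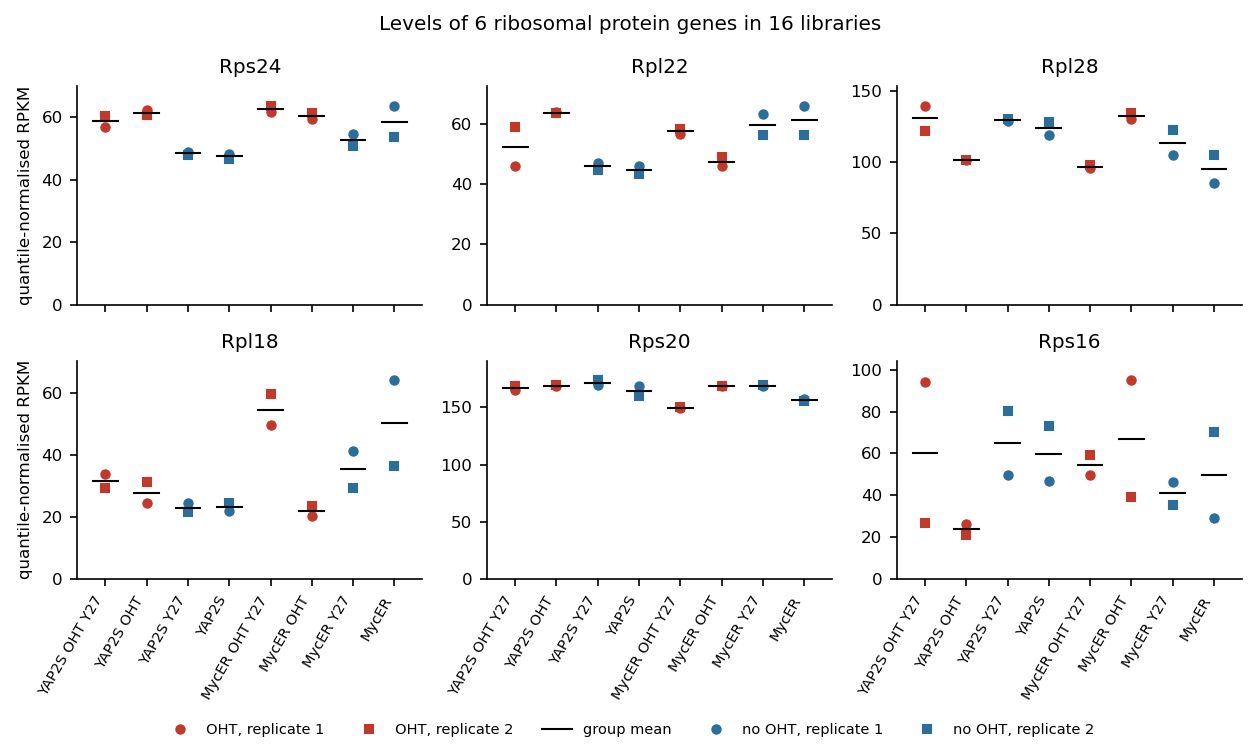
Quantile-normalised RPKM of 6 ribosomal protein genes in all 16 libraries, with OHT in red and without OHT in blue, replicate 1 as circles, replicate 2 as squares and the group mean as a line; each axis starts at 0. Rps24 lies between 57.0 and 63.6 RPKM in all OHT libraries, Rpl18 is highest in MycER replicate 1 (63.9 RPKM), and the replicates of Rps16 lie far apart.

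Genes that make or serve ribosomes were counted in the same average. Of 42 genes tested in a list of ribosome assembly factors, which also holds Polr1b of RNA polymerase I, 34 were higher with OHT and 0 lower, with a median change of 0.33. Among them were Polr1b, a subunit of RNA polymerase I (0.89 ± 0.04), Rrp9, a protein of the U3 particle (0.80 ± 0.05), and Ncl, the nucleolar protein nucleolin (0.73 ± 0.08). Chaperones and import factors, not all of them dedicated to ribosomal proteins, had 7 of 11 higher and 1 lower, with a median of 0.17. They included Grwd1, which binds Rpl3 (0.45 ± 0.05), and Heatr3, which serves Rpl5 and Rpl11 (0.24 ± 0.03), while Sgtb fell by 0.32 (adjusted p = 0.0457). Mitochondrial ribosomal proteins, which form a separate ribosome, had 17 of 76 higher and 1 lower (median 0.06). Other TOP mRNAs had 4 of 15 higher and 0 lower (median 0.01): Eef1d, Nap1l1, Pabpc1 and Eif3a, of which Nap1l1 also stands among the chaperones. Regulators of TOP mRNA translation had 5 of 12 higher and 2 lower (median 0.13), with Larp1 at 0.33 ± 0.06 and Mtor at 0.46 ± 0.10. Counts of these lists are set beside 17.7% higher and 20.6% lower over all genes, and no test compared the lists with each other.

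**Figure D4:**
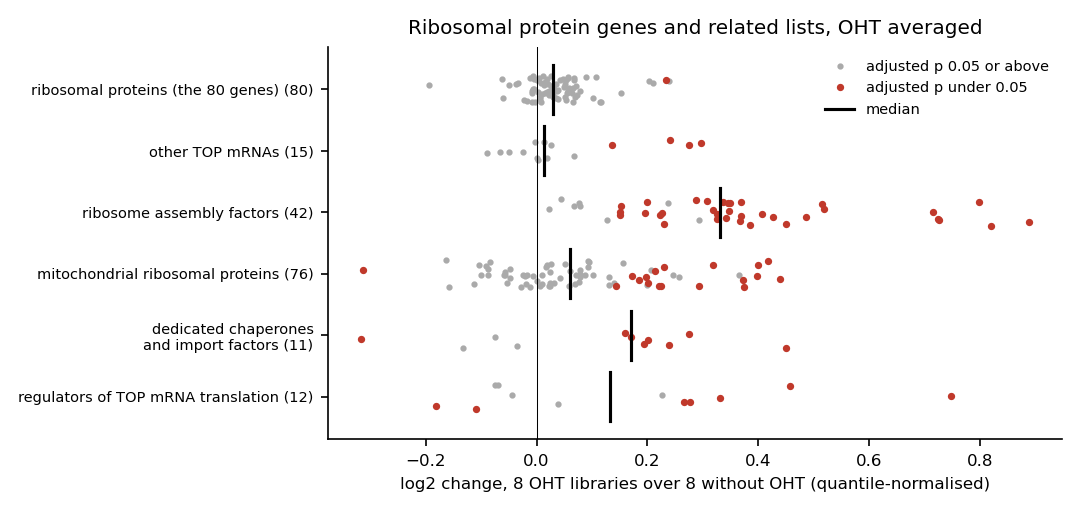
Log2 change in the average over OHT (8 libraries over 8, quantile-normalised) for each gene of the 80 and of 5 related lists, with the number tested in brackets. Red points passed an adjusted p of 0.05, grey points did not, and black lines are medians. The 80 genes crowd around 0.03, while the list of assembly factors, Polr1b included, has a median of 0.33 and 34 of 42 in red.

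Single pairs of groups were compared next, with the depth of each, since depth and calls moved together. Groups within these comparisons share libraries, so they are not independent of one another. Comparisons that include a group with OHT also depend on the population labels, which Bex1 goes against in those libraries. In MycER OHT against MycER, 14.6 against 4.41 M reads on average, 31 of the 80 were lower and 3 higher (20.3% and 18.9% of all genes), with a median of -0.16. In MycER OHT Y27 against MycER Y27, 3.12 against 8.23 M, 29 were higher and 1 lower (25% and 24.7% of all genes), with a median of 0.14. Most members called were thus lower with OHT in the absence of Y27 and higher with OHT in its presence. In the pairs of nearer depth, YAP2S OHT against YAP2S had 2 higher and 0 lower (10.1% and 9.73% of all genes), and YAP2S OHT Y27 against YAP2S Y27 had 1 higher and 0 lower (10.9% and 11% of all genes).

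Y27 and the YAP2S label were compared in the same way. MycER OHT Y27 against MycER OHT had the most calls, 47 higher and 3 lower (15.5% and 15.7% of all genes; median 0.22), with 3.12 against 14.6 M reads. MycER Y27 against MycER had 0 higher and 0 lower by limma (9.22% and 8.61% of all genes). At an unadjusted limma p under 0.05 there were 10, and voom on the recovered reads called 0. Shares over all genes are not given for the unadjusted and voom counts in these comparisons. YAP2S Y27 against YAP2S, at 14.4 and 13.9 M reads, also had 0 and 0 (1.38% and 1.07% of all genes), with 0 at an unadjusted p under 0.05 and 0 by voom, and its changes among the 80 had a median of 0.00. YAP2S OHT Y27 against YAP2S OHT had 2 higher and 1 lower (8.77% and 9.26%). Between populations, YAP2S against MycER had 29 lower and 2 higher (8.23% and 7.56% of all genes; median -0.20), and YAP2S OHT Y27 against MycER OHT Y27 had 32 lower and 3 higher (22.9% and 22%; median -0.17). In both pairs the group labelled MycER was the shallower. YAP2S Y27 against MycER Y27 had 5 lower and 0 higher (10.3% and 10.6%), and YAP2S OHT against MycER OHT had 2 lower and 1 higher (9.57% and 9.82%).

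The same comparisons were read without normalisation and with depth in the model. As deposited, 72 of the 80 were lower in MycER OHT against MycER (13.3% of all genes), 55 higher in MycER OHT Y27 against MycER Y27 (16.6%) and 71 higher in MycER OHT Y27 against MycER OHT (10.5%). A further 72 were lower in YAP2S against MycER (8.43%) and 70 lower in YAP2S OHT Y27 against MycER OHT Y27 (14.2%). The median of all genes itself moved with that scale, by 0.22 in MycER OHT against MycER and by -0.29 in MycER OHT Y27 against MycER OHT, against medians of -1.13 and 1.26 for the 80. With log2 depth as a covariate, 0 of the 80 were lower in MycER OHT against MycER (3.81% of all genes), 1 was higher in MycER OHT Y27 against MycER Y27 (19.7%) and 0 were higher in MycER OHT Y27 against MycER OHT (0.936%). In YAP2S against MycER 0 were lower (0.284%) and in YAP2S OHT Y27 against MycER OHT Y27 0 were lower (11.6%). In the other direction the covariate fit called Rps15a higher in MycER OHT against MycER (0.71, adjusted p = 0.00988; 3.88% of all genes higher). It called 3 lower in MycER OHT Y27 against MycER Y27 (20.2% of all genes), namely Rpl12 (-0.14), Rpl9 (-0.14) and Rps20 (-0.18), and 3 higher in YAP2S OHT Y27 against MycER OHT Y27 (12.9%), again Rpl12 (0.17), Rpl9 (0.16) and Rps20 (0.16). The leading direction thus turned in these 3 comparisons only among the few members called, at 1, 3 and 3 of the 80. These are smaller shares than those over all genes, so they do not show that the 80 turned as a set. As every group has a coefficient of its own in that fit, the depth slope rests on differences between replicates within groups, of which MycER (1.76 and 7.06 M) spans the widest.

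Single libraries decided several of these counts. Shares over all genes are not given for these fits. Whether the 80 genes or all genes moved therefore cannot be told from the counts below. Without MycER replicate 1, the shallowest, 9 were lower in MycER OHT against MycER, with 1 higher, and 0 of the 80 were called in YAP2S against MycER. Without MycER replicate 2 those in YAP2S against MycER numbered 45 lower and 2 higher, and MycER Y27 against MycER had 24 lower and 2 higher. Without MycER OHT replicate 1, 10 were lower and 2 higher in MycER OHT against MycER. In MycER OHT Y27 against MycER Y27, 2 were higher without MycER OHT Y27 replicate 2 and 1 was higher without MycER Y27 replicate 2, the deeper library of its group. With MycER OHT Y27 replicate 1 left out, 11 were higher. Without YAP2S replicate 1, 0 were called in YAP2S against MycER, and 1 without YAP2S replicate 2. MycER OHT Y27 against MycER OHT had 18 higher without MycER OHT replicate 1, 28 without MycER OHT Y27 replicate 1 and 23 without its replicate 2. In YAP2S OHT Y27 against MycER OHT Y27, 14 were lower without MycER OHT Y27 replicate 2. YAP2S OHT Y27 replicate 2 also mattered: without it, 9 were higher and 4 lower in YAP2S OHT Y27 against YAP2S Y27, and 9 higher and 6 lower in YAP2S OHT Y27 against YAP2S OHT. YAP2S Y27 against MycER Y27 had 14 lower without MycER replicate 1, 15 lower without its replicate 2 and 9 lower without MycER Y27 replicate 2, but 0 without MycER Y27 replicate 1 or either replicate of YAP2S Y27.

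**Figure D5:**
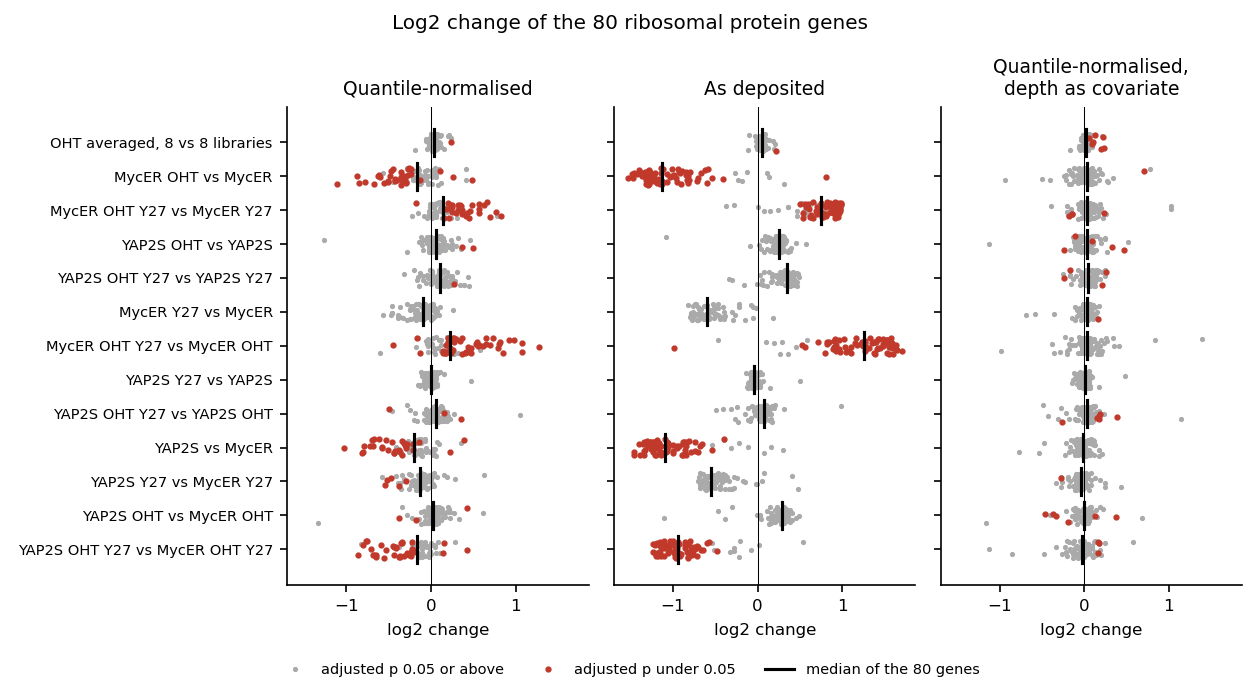
Log2 change of each of the 80 ribosomal protein genes (points) in 13 comparisons, named as the group on top against its reference, for quantile-normalised values, values as deposited and quantile-normalised values with log2 depth as a covariate. Red points passed an adjusted p of 0.05 and black lines are medians. As deposited, the medians run from -1.13 in MycER OHT against MycER to 1.26 in MycER OHT Y27 against MycER OHT, and in the right panel they lie near 0.

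The members that moved most in these pairs were Rpl18, Rpl5 and Rpl35, all of the large subunit. Rpl18 had 20.2 and 23.6 RPKM in MycER OHT, against 63.9 and 36.6 RPKM in MycER, a change of -1.11 ± 0.23 (adjusted p = 0.00342). In MycER OHT Y27 it had 49.5 and 59.6 RPKM, a change of 1.28 ± 0.23 over MycER OHT (adjusted p = 0.00249). Rpl5, which with Rpl11 and 5S RNA can bind Mdm2 and so stabilise p53, had 41.6 and 48.1 RPKM in MycER OHT, against 101 and 68.1 RPKM in MycER (-0.88 ± 0.17). It had 94.4 and 97.0 RPKM in MycER OHT Y27, 1.08 ± 0.17 above MycER OHT. Rpl35 changed by -0.85 ± 0.17 and 1.08 ± 0.17 in the same comparisons. Within each of the groups MycER and MycER Y27 the shallower replicate had the higher level of all 3 genes, for example 63.9 against 36.6 RPKM for Rpl18 in MycER. In YAP2S against MycER these 3 were again the lowest (-1.03, -0.81 for Rpl5 and -0.81 for Rpl35), and with depth as a covariate their changes in that comparison were -0.13, -0.17 and -0.22. Rpl21 (0.76) and Rps15a (0.82) led the members called in MycER OHT Y27 against MycER Y27, and were the lowest of those called in YAP2S OHT Y27 against MycER OHT Y27 (-0.86 and -0.81). Rpl11 was the lowest of the 80 in MycER Y27 against MycER (-0.57, adjusted p = 0.0822).

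The changes were also set against reads per base. Over the 80 genes, the normalised change in YAP2S against MycER had a Pearson r of 0.75 with reads per base in the deepest library, and in MycER OHT Y27 against MycER OHT an r of -0.59. As deposited these were -0.61 and 0.64. Genes are not independent replicates, and the points share their libraries, so these values describe the pattern only. For the 7 members under 0.5 reads per base the median change in MycER OHT against MycER was -0.45 after normalisation and -0.19 as deposited, while for the 44 at 1 read per base or more it was -0.11 and -1.26. The GC content of the genes, with a median of 51.6% for the 79 that had a value and 50.2% for the genes tested, had an r of 0.18 with the change in YAP2S against MycER.

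Rpl28, a protein of the large subunit, moved in the other direction from most members after normalisation. Its normalised level was 139.4 and 121.8 RPKM in YAP2S OHT Y27, 101.1 and 101.6 RPKM in YAP2S OHT, 128.6 and 130.4 RPKM in YAP2S Y27 and 119.2 and 128.3 RPKM in YAP2S. In the other population it was 95.7 and 98.1 RPKM in MycER OHT Y27, 130.4 and 134.6 RPKM in MycER OHT, 105.1 and 122.2 RPKM in MycER Y27 and 85.2 and 104.6 RPKM in MycER. Its change was 0.48 ± 0.10 in MycER OHT against MycER (adjusted p = 0.00264) and -0.45 ± 0.10 in MycER OHT Y27 against MycER OHT (adjusted p = 0.00543). As deposited these values were -0.40 and 0.56, so their sign depended on the scaling, and with depth as a covariate they were 0.21 and -0.15, neither called. In YAP2S OHT Y27 against YAP2S OHT, which had 9.77 and 11.2 M reads on average, Rpl28 was higher by 0.36 ± 0.10 (adjusted p = 0.024), by 0.32 as deposited (adjusted p = 0.17) and by 0.38 with depth as a covariate (adjusted p = 0.00545). Rpl34 was lower in that comparison (-0.50 ± 0.16, adjusted p = 0.047), and its read counts there were 46 and 72 against 110 and 82. Rpl17 rose by 0.15 in it. Rpl36 was higher by 0.26 in MycER OHT against MycER and by 0.23 in YAP2S against MycER, but its deposited changes there were -1.01 and -0.96. Rps20 changed by 0.10 in MycER OHT against MycER and by -0.17 in MycER OHT Y27 against MycER OHT, against -1.29 and 1.37 as deposited.

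Rpl22, an RNA-binding protein of the large subunit, was at 63.9 RPKM or just above in both YAP2S OHT libraries, against 46.3 and 43.6 RPKM in YAP2S. Both libraries with OHT lay above both without. The change was 0.50 ± 0.11 (adjusted p = 0.00842), and 0.46 with depth as a covariate (adjusted p = 0.00912); as deposited it was 0.57 (adjusted p = 0.051). It was also higher in YAP2S OHT than in MycER OHT, where it had 46.1 and 49.0 RPKM (0.42 ± 0.11, adjusted p = 0.0211). In MycER OHT against MycER, which had 66.2 and 56.4 RPKM, its change was -0.36 (adjusted p = 0.0245). In YAP2S OHT Y27 the replicates lay apart, at 46.0 and 59.3 RPKM. Averaged over OHT, its change was 0.07 (adjusted p = 0.363). Unlike this average, the changes by pair depend on the population labels of the OHT libraries, which the level of Bex1 goes against. By level, YAP2S OHT lay near MycER and MycER OHT near YAP2S. An effect of OHT and a difference between populations therefore cannot be told apart in these pairs.

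Rps16, of the small subunit head, differed widely between replicates. It had 93.9 and 26.7 RPKM in YAP2S OHT Y27 and 94.9 and 39.2 RPKM in MycER OHT, while MycER had 29.4 and 70.4 RPKM. The replicates differed by up to 1.78 on the log2 scale, and in 6 of the 8 groups Rps16 had the lowest or the highest of the differences between replicates among the 80. Its changes in YAP2S OHT against YAP2S (-1.27 ± 0.57, adjusted p = 0.142) and in YAP2S OHT against MycER OHT (-1.33 ± 0.57, adjusted p = 0.122) did not pass the threshold. Its replicates differed by 0.31 in YAP2S OHT, 0.63 in YAP2S and 1.25 in MycER OHT, while the standard error pools the spread of all groups. The root mean square difference between replicates had a median of 0.12 over the 80.

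There were 4 paralogs among the 80. Rps27l, a p53 target that resembles Rps27, had a mean of 68.2 normalised RPKM, against 81.8 RPKM for Rps27. Rpl22l1, which can take the place of Rpl22, had 69.5 RPKM, against 54.3 RPKM for Rpl22, and Rpl7l1 had 57.6 RPKM, against 134 RPKM for Rpl7. Rps4l stood at 0.42 RPKM, against 145 RPKM for Rps4x. Rpl3 (98.1 RPKM), Rpl10 (156 RPKM) and Rpl39 (82.6 RPKM) were expressed, while Rpl3l, Rpl10l and Rpl39l, known from muscle and testis, stayed below the level for inclusion. Rpl7l1 varied least among the paralogs, between 54.9 and 63.8 RPKM over the 16 libraries. In MycER OHT against MycER, Rps27l changed by -0.47 and Rps27 by -0.40, and in MycER OHT Y27 against MycER OHT they changed by 0.61 and 0.44, all past the threshold.

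The stalk proteins and members with known roles beyond the ribosome were described by their range over the 16 libraries. Rplp0, the stalk base, fell by 0.23 on the log2 scale in MycER OHT against MycER, and its levels lay between 115 and 147 RPKM, while Rplp2 lay between 84.0 and 103.2 RPKM and Rplp1 between 159 and 179.6 RPKM. Rps6, the substrate of S6 kinase, had 105 to 129 RPKM, and Rps27a, which is made as a fusion with ubiquitin, 81.8 to 107.5 RPKM. Rpl38, known in mice for its part in translating Hox mRNAs, had 103 to 133 RPKM. Rpl10a had 143 and 139 RPKM in YAP2S OHT Y27, against 128.1 and 127 RPKM in MycER OHT Y27, and was higher in YAP2S OHT Y27 (0.14, adjusted p = 0.0153), while its deposited change was -0.81. Rps19 had 26.3 to 65.3 RPKM and Rpl11 13.5 to 33.2 RPKM, both highest in MycER replicate 1. In the averaged OHT comparison Rps6, Rplp0, Rplp1, Rplp2, Rps27a and Rpl38 were not called.

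The mean profile of the 80 genes over the 8 groups had an r of -0.99 with the log2 of mean depth, as a description. It was highest in MycER OHT Y27 (0.22 on the log2 scale above the mean of all groups, 3.12 M reads) and MycER (0.14, 4.41 M reads), and lowest in YAP2S Y27 (-0.12, 14.4 M reads) and YAP2S (-0.11, 13.9 M reads). Among 8083 other genes with a mean of 10 RPKM or more, the most alike over the 8 group means were Rpsa, a ribosomal protein gene outside the symbols used (r = 0.995), Zfp488 (0.995), Zfp353-ps (0.993), Pomp (0.990) and Naca (0.988). These r rest on 8 points that share the depth of their groups.

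Whether Y27 or YAP2S altered the response to OHT was tested as the difference between responses. In MycER, 47 members had a higher response to OHT with Y27 than without it and 3 a lower one (20% and 19.3% of all genes), with a median difference of 0.29. For Rpl18 the difference was 1.74 ± 0.33, for Rpl5 1.44 ± 0.24 and for Rpl35 1.41 ± 0.24, and for Rpl28 it was -0.71 ± 0.14. In YAP2S the same test called 0 and 0 by limma (0.13% and 0.691% of all genes). At an unadjusted limma p under 0.05 there were 2, and voom called 0, both without a share over all genes given. For Rpl28 in MycER the sign turned as deposited (0.65). The response without Y27 was higher in YAP2S than in MycER for 24 members and lower for 3 (16.9% and 15.5% of all genes), with a median of 0.20. Of these differences, the ones in MycER rest on groups of 1.76 to 15.7 M reads and those within YAP2S on groups of 9.36 to 15.0 M.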

How the data were processed

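The authors deposited 1 table of 21671 genes by 16 libraries. No source names its unit, and the values behave as RPKM: per the labels and the submitters' processing notes, reads from TruSeq RNA v2 libraries were aligned to mm9 with TopHat2 2.0.8 and TopHat, handled with SAMtools and counted per gene with featureCounts 1.4.5-p1 before the RPKM values were deposited. Handling of identical or multiply mapped reads is not given in the sources used here. From the steps of low values, 99.98% of values came out as whole reads (within 0.01 of a read; 3 genes were not recovered), which gave the depth of each library. The 13028 genes that reached 1 RPKM in 2 or more libraries were set on the log2(RPKM + 1) scale, quantile-normalised and fitted with limma 3.58.1 in R 4.3.3 on all 16 libraries (1 coefficient per group, trended variance, 8 residual degrees of freedom), with two-sided p-values adjusted by Benjamini-Hochberg over all genes and called under 0.05. A fold change on this scale understates the change of low genes. Fold changes are the group named first minus its reference.

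Correlations with depth carry permutation p-values (100000 resamples, or exact with 8 libraries). Tables were handled in Python 3.11.15 with numpy 2.4.6, pandas 2.3.3, scipy 1.17.1 and matplotlib 3.10.9. The limma script was tested on simulated data. No 2 libraries held identical values. Alternatives were values as deposited, cyclic loess, a pseudocount of 0.1, no filter, a replicate block, own libraries only, voom on the recovered reads, depth as a covariate and each library left out. A further 3 were chosen after seeing the data: reads corrected for filled positions, no libraries under 4 M reads and only libraries without OHT. Members and lists were chosen with earlier results of these data known. Named with values are the paralogs and their standard members, the stalk proteins, Rpl5, Rpl11, Rps6, Rps19, Rps27a, Rpl10a and Rpl38, the 6 members highest and the 6 lowest in the average over OHT, the 3 at each end of every other comparison and of the mean level, and the 5 genes most like the members' profile; others were named after their values were seen. A few items, among them a list of ribosomal proteins with other kinds of symbol, are not reported here.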

Additional observations from a re-analysis of the deposited data

Results flagged for a closer look

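The response of ribosomal protein genes to OHT differed with Y27 in MycER by the test of the difference itself for 50 of the 80 genes (47 higher and 3 lower with Y27). Over all genes, 20% were higher and 19.3% lower in that test. The difference was 1.74 for Rpl18, 1.44 for Rpl5, 1.41 for Rpl35, -0.71 for Rpl28 and -0.28 for Rps20. Shares over all genes are not given here for the depth covariate or for fits without single libraries. Those counts therefore do not show what is particular to the 80. The difference was called for 2 genes with depth as a covariate, both lower. Without MycER Y27 replicate 2 it was called for 32, and without MycER OHT replicate 1 for 33.

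The response to OHT without Y27 also differed between YAP2S and MycER, for 27 of the 80 genes (24 higher and 3 lower in YAP2S). Of all genes, 16.9% were higher and 15.5% lower. The difference was 1.36 for Rpl18, 1.02 for Rpl5, -0.77 for Rpl28 and -0.26 for Rpl36. With depth as a covariate this difference was called for 1 gene. Shares over all genes are again not given for that fit or for those without single libraries. Leaving out MycER replicate 1 gave 15 and leaving out its replicate 2 gave 44. The count was 12 without MycER OHT replicate 1, 13 without YAP2S replicate 1 and 9 without YAP2S OHT replicate 2. Both differences rest on groups of unlike depth. Both also depend on the population labels of the OHT libraries, which the level of Bex1 goes against, at 1.01 and 0.47 RPKM in YAP2S OHT and 19.0 and 19.8 RPKM in MycER OHT, and with Y27 at 0.12 and 0.57 RPKM in YAP2S OHT Y27 and 7.64 and 7.49 RPKM in MycER OHT Y27.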

How the results depend on the processing

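Counts of the 80 genes called moved by over 1.5 times, or changed their leading direction, under these settings. The cause was not tested. The counts take both directions together, and shares over all genes are not given beside them. Whether the 80 genes or all genes moved therefore cannot be told from these counts. As deposited the counts were 73 in MycER OHT against MycER, 55 in MycER OHT Y27 against MycER Y27, 0 in YAP2S OHT against YAP2S and in YAP2S OHT Y27 against YAP2S Y27 and in YAP2S OHT Y27 against YAP2S OHT and in YAP2S Y27 against MycER Y27 and in YAP2S OHT against MycER OHT, 72 in YAP2S against MycER, 70 in YAP2S OHT Y27 against MycER OHT Y27 and 71 in OHT by YAP2S without Y27. With only the libraries of the comparison the counts were 9 in MycER OHT against MycER, 16 in YAP2S OHT against YAP2S, 0 in YAP2S OHT Y27 against YAP2S Y27 and in YAP2S OHT Y27 against YAP2S OHT and in YAP2S against MycER, 15 in YAP2S Y27 against MycER Y27, 10 in YAP2S OHT against MycER OHT and 18 in YAP2S OHT Y27 against MycER OHT Y27. With voom on the recovered reads the counts were 71 in MycER OHT against MycER and in YAP2S OHT Y27 against MycER OHT Y27, 68 in MycER OHT Y27 against MycER Y27, 3 in YAP2S OHT Y27 against YAP2S Y27, 2 in the average over OHT, 0 in YAP2S OHT Y27 against YAP2S OHT, 72 in YAP2S against MycER and in OHT by YAP2S without Y27, 29 in YAP2S Y27 against MycER Y27 and 1 in YAP2S OHT against MycER OHT. With depth as a covariate the counts were 1 in MycER OHT against MycER and in MycER Y27 against MycER and in YAP2S Y27 against MycER Y27 and in OHT by YAP2S without Y27, 4 in MycER OHT Y27 against MycER Y27 and in YAP2S OHT Y27 against YAP2S Y27, 5 in YAP2S OHT against YAP2S, 7 in the average over OHT, 0 in MycER OHT Y27 against MycER OHT and in YAP2S against MycER, 6 in YAP2S OHT Y27 against YAP2S OHT and in YAP2S OHT against MycER OHT, 3 in YAP2S OHT Y27 against MycER OHT Y27 and 2 in OHT by Y27 in MycER. With reads corrected for filled positions the counts were 70 in MycER OHT against MycER, 57 in MycER OHT Y27 against MycER Y27, 1 in YAP2S OHT against YAP2S, 0 in YAP2S OHT Y27 against YAP2S Y27 and in YAP2S OHT Y27 against YAP2S OHT and in YAP2S Y27 against MycER Y27 and in YAP2S OHT against MycER OHT, 71 in YAP2S against MycER, 67 in YAP2S OHT Y27 against MycER OHT Y27 and 69 in OHT by YAP2S without Y27. Without the 3 libraries under 4 M reads the counts were 10 in MycER OHT against MycER, 4 in YAP2S OHT against YAP2S, 7 in YAP2S OHT Y27 against YAP2S Y27, 5 in the average over OHT, 0 in YAP2S against MycER and 13 in YAP2S Y27 against MycER Y27 and in OHT by YAP2S without Y27. With cyclic loess the counts were 53 in MycER OHT Y27 against MycER Y27, 0 in YAP2S OHT Y27 against YAP2S Y27 and in YAP2S OHT Y27 against YAP2S OHT and in YAP2S Y27 against MycER Y27 and in YAP2S OHT against MycER OHT, 14 in YAP2S against MycER and 7 in OHT by YAP2S without Y27. With no filter the counts were 17 in MycER OHT Y27 against MycER Y27, 1 in YAP2S OHT Y27 against YAP2S OHT and in YAP2S OHT against MycER OHT, 16 in YAP2S against MycER and in OHT by YAP2S without Y27 and 0 in YAP2S Y27 against MycER Y27. With a pseudocount of 0.1 the counts were 1 in MycER Y27 against MycER. With only the libraries without OHT the counts were 18 in YAP2S against MycER and 1 in YAP2S Y27 against MycER Y27. With the replicate block the counts were 3 in YAP2S Y27 against MycER Y27. Rpl28, Rps20 and Rpl36 turned their sign. As deposited, Rpl28 was -0.40 in MycER OHT against MycER, 0.56 in MycER OHT Y27 against MycER OHT, -0.40 in YAP2S against MycER, 0.0227 in YAP2S OHT against MycER OHT, -0.22 in YAP2S OHT Y27 against MycER OHT Y27, 0.65 in OHT by Y27 in MycER and 0.42 in OHT by YAP2S without Y27, and Rps20 was 0.71 in MycER OHT Y27 against MycER Y27, -0.94 in YAP2S OHT Y27 against MycER OHT Y27 and 2.00 in OHT by Y27 in MycER, and Rpl36 was -0.96 in YAP2S against MycER and 1.26 in OHT by YAP2S without Y27. With voom on the recovered reads, Rpl28 was -0.61 in MycER OHT against MycER, 0.87 in MycER OHT Y27 against MycER OHT, -0.64 in YAP2S against MycER, 0.086 in YAP2S OHT against MycER OHT, -0.43 in YAP2S OHT Y27 against MycER OHT Y27, 1.06 in OHT by Y27 in MycER and 0.72 in OHT by YAP2S without Y27, and Rps20 was 0.77 in MycER OHT Y27 against MycER Y27, -0.98 in YAP2S OHT Y27 against MycER OHT Y27 and 1.97 in OHT by Y27 in MycER, and Rpl36 was -1.06 in YAP2S against MycER and 1.43 in OHT by YAP2S without Y27. With reads corrected for filled positions, Rpl28 was -0.21 in MycER OHT against MycER, 0.39 in MycER OHT Y27 against MycER OHT, -0.25 in YAP2S against MycER, -0.12 in YAP2S OHT Y27 against MycER OHT Y27, 0.44 in OHT by Y27 in MycER and 0.11 in OHT by YAP2S without Y27, and Rps20 was 0.57 in MycER OHT Y27 against MycER Y27, -0.78 in YAP2S OHT Y27 against MycER OHT Y27 and 1.63 in OHT by Y27 in MycER, and Rpl36 was -0.77 in YAP2S against MycER and 1.06 in OHT by YAP2S without Y27. With cyclic loess, Rps20 was 0.0686 in MycER OHT Y27 against MycER Y27, -0.0479 in YAP2S OHT Y27 against MycER OHT Y27 and 0.15 in OHT by Y27 in MycER.

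Leaving out each of the 16 libraries in turn gave counts of 10 to 49 in MycER OHT against MycER, 2 to 39 in MycER OHT Y27 against MycER Y27, 0 to 5 in YAP2S OHT against YAP2S, 0 to 13 in YAP2S OHT Y27 against YAP2S Y27, 1 to 10 in the average over OHT, 0 to 26 in MycER Y27 against MycER, 20 to 55 in MycER OHT Y27 against MycER OHT, 0 to 0 in YAP2S Y27 against YAP2S, 0 to 15 in YAP2S OHT Y27 against YAP2S OHT, 0 to 47 in YAP2S against MycER, 0 to 16 in YAP2S Y27 against MycER Y27, 0 to 5 in YAP2S OHT against MycER OHT, 16 to 40 in YAP2S OHT Y27 against MycER OHT Y27, 32 to 53 in OHT by Y27 in MycER, 0 to 5 in OHT by Y27 in YAP2S and 9 to 44 in OHT by YAP2S without Y27. Where a group kept 1 library, it was assumed to vary like the others, and shares over all genes are not given for these fits. Of 608 such values for the 38 named changes, 534 stayed past the threshold, 74 no longer passed it and 0 turned their sign.

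Replicate numbers did not pair the libraries: deviations of same-numbered libraries correlated between -0.305 and 0.419 over 28 pairs of groups, above 0.1 in 7. The replicate block moved the count of YAP2S Y27 against MycER Y27 to 3 and no other count by over 1.5 times.

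The depth relation of the median kept its direction at -0.996 as deposited, -0.96 with cyclic loess and -0.95 with a pseudocount of 0.1. Members under 0.5 reads per base, 7 of the 80, and the low counts of Rpl26 and Rps4l limit what can be seen at this depth.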
